A study of Homo sapiens with 6 samples.

Results

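The replication-dependent histone genes are the clustered genes that supply the bulk of histone protein while DNA is copied. They were taken here as every gene of the deposited count table whose symbol is H1-1 to H1-6 or a numbered gene of the H2A, H2B, H3 and H4 clusters (H2AC, H2BC, H3C and H4C symbols). This rule uses names alone and no measured value. It found 58 genes of the 31966 in the table: 6 for the linker histone H1, 14 for H2A, 16 for H2B, 10 for H3 and 12 for H4. Each symbol had 1 row.

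The series holds 6 RNA libraries of the acute myeloid leukaemia cell line Kasumi-1, an established human line. Cells carried a doxycycline-inducible hairpin RNA against luciferase (shLUC, the control, n = 3) or against FBL (shFBL, the FBL knockdown, n = 3), and both groups received 100 ng/ml doxycycline for 72 h. FBL encodes fibrillarin, the nucleolar enzyme that adds methyl groups to ribosomal RNA, so the comparison asks what its loss does to the messenger RNAs of these cells. The labels name 1 hairpin against FBL, and they leave unsaid if replicates were grown as separate cultures. The p-values then measure no more than the spread among these 6 samples, part of which may be technical.

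Nucleosomes hold pairs of H2A, H2B, H3 and H4, and H1 binds the DNA between nucleosomes. The genes for these proteins are switched on together as cells enter S phase, by NPAT at the histone locus bodies, and their messages are removed when DNA synthesis stops. Their messages are unusual in that most end after a short stem-loop in place of a poly(A) tail. The stem-loop is bound by SLBP, and the end is cut with the help of the U7 small nuclear ribonucleoprotein. Some of these genes are also known to give polyadenylated messages. The histone variants, by contrast, come from genes outside the clusters, and many of these give polyadenylated messages throughout the cell cycle.

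Each library held between 85556322 and 103148412 counts assigned to genes. Histone members took 0.00481% to 0.00591% of them. The extraction protocol names total RNA and a NEBNext Ultra kit. Whether poly(A) RNA was selected or ribosomal RNA removed is not given in the sources used here, so the values may cover only polyadenylated forms of these messages. FBL, in counts scaled to a common library total (CPM), had a mean of 558 ± 19.6 with shLUC (SD, n = 3) and of 43.8 ± 10.8 with shFBL (n = 3), 12.7-fold lower (edgeR adjusted p = 3.85e-06), as the labels say. The 6 markers sought for the myeloid blasts of this line (RUNX1T1, KIT, CD34, MPO, CD33 and ELANE) summed to 5531 to 9207 CPM per library. Most of this was MPO, with a mean of 7254 with shLUC and 5411 with shFBL (edgeR adjusted p = 0.0111). CD34 was low, at 2.54 with shLUC and 4.03 with shFBL (edgeR adjusted p = 0.00249). Of 9 markers of T cells, B cells, hepatocytes, fibroblasts and epithelium, 8 were in the table, and they summed to 0.488 to 0.686 CPM. Mitochondrial transcripts made up 12.4% to 15.2% of counts in controls and 14.7% to 18.8% in knockdown libraries.

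The stem-loop is the feature that sets the ends of these messages apart, and it decides which RNA a library that needs a poly(A) tail would miss. In transcripts of GENCODE v29 (GRCh38), the 16-base pattern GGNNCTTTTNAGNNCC lies after the coding sequence of 27 of the 58 members. The same search found it in 18 of 20313 other genes, a share of 0.0886%, and in 45 of all 20371, or 0.221%. It was searched on the transcript strand. For 26 members the annotation holds the coding sequence alone, so it has no region in which the pattern could be found. The 5 forms found are given here with 5 bases on either side and the stem-loop in capitals, written as DNA. H2AC6 stands for the form in 15 members, H4C11 and H2BC5 each for a form in 4, H4C9 for one in 3, and H2AC11 has the form seen in 1 member. H2BC6, a gene that fell, is set beside H2AC6, a gene that rose: their 16 bases are the same.
H2AC6: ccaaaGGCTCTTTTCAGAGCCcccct
H2BC6: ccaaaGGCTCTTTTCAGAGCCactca
H2BC5: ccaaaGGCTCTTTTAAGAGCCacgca
H4C11: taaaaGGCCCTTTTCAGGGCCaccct
H4C9: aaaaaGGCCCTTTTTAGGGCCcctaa
H2AC11: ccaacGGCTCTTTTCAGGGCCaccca
The first 3 carry the stem of H2A, H2B and H3 genes, with GGCTC paired to GAGCC, and the H4 genes carry GGCCC paired to GGGCC. H2AC11 joins the left arm of the first kind to the right arm of the second.

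Promoter elements differ in share between the classes. RefSeq (GRCh38.p14) promoter windows, which run from 250 bases before the transcript start to 50 after it, were matched by symbol to 53 of the 58 members, and those of H2AC12, H3C11, H3C12, H4C1 and H4C3 were not used here. Motifs were sought on both strands, with overlapping matches counted. The octamer ATTTGCAT, read by POU2F1 and its coactivators, lay in 13 of 16 H2B and 9 of 13 H2A windows and in 0 H1, H3 or H4 windows, against 1.8% of all 27305 promoters. The H1 box AAACACA lay in 6 of 6 H1 windows, in 1 H2A and 2 H3 windows, in 0 H2B or H4 windows and in 5.76% of all promoters. GGTCCG, the core of the H4 element read by HINFP, lay in 10 of 10 H4 windows, in 1 window each of H2A, H2B and H3 (the H3 one is H3C7), in 0 H1 windows and in 11.2% of all promoters. CCAAT was present in every H1, H2A, H2B and H3 window, in 2 of 10 H4 windows and in 35.7% of all promoters, and TATAAA in 37 of the 53 and in 12% of all. Windows of head-to-head H2A and H2B genes overlap, so the same octamer can be counted for both classes. This holds, among others, for H2AC6 with H2BC4, H2AC11 with H2BC11 and H2AC14 with H2BC14. A match is a description of the letters and does not show that a factor was bound.

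The windows of the 5 changed genes that had one follow, with those of H1-2 and H4C9, the H1 and H4 genes of highest CPM, to show the class elements. Each line gives 150 bases before the RefSeq start and 10 from it, 5′ to 3′ on the gene's strand, and the capitals mark these 5 motifs on either strand (ATGCAAAT, ATTGG and CGGACC are the octamer, CCAAT and GGTCCG read from the other strand, and matches that overlap run together). H2AC6 is at chr6:26124022-26124181 (+ strand), H2BC14 at chr6:27814872-27815031 (+), H2BC12 at chr6:27146849-27147008 (-), H2BC6 at chr6:26183611-26183770 (+), H3C7 at chr6:26250626-26250785 (-), H1-2 at chr6:26056461-26056620 (-) and H4C9 at chr6:27139132-27139291 (+).
H2AC6: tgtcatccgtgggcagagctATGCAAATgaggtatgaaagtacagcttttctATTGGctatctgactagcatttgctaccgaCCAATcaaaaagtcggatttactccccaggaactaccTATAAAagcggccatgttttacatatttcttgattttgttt
H2BC14: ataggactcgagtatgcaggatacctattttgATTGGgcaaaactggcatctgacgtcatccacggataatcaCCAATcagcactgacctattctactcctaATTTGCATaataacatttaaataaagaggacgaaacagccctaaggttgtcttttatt
H2BC12: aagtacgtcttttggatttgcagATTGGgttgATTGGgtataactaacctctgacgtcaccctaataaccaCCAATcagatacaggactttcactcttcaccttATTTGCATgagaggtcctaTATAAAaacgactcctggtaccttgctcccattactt
H2BC6: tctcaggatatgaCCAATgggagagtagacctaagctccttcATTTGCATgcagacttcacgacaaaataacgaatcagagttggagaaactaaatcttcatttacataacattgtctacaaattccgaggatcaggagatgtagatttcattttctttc
H3C7: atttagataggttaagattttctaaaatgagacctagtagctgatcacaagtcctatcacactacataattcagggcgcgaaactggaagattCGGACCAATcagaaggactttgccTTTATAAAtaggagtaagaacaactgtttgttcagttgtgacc
H1-2: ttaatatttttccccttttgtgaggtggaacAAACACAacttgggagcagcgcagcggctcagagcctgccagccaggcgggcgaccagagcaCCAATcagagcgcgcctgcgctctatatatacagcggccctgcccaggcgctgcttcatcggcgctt
H4C9: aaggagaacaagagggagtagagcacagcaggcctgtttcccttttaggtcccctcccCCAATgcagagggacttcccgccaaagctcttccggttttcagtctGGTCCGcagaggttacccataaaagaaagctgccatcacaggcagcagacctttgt
The octamer stands in the windows of H2AC6, which rose, and of H2BC14, H2BC12 and H2BC6, which fell. That of H2AC6 is the same stretch of DNA as the octamer in the window of its neighbour H2BC4.

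Of the 58 members, 52 had enough counts to be tested. H1-1, H1-6, H2AC17, H2AC21, H3C6 and H3C13 did not, with at most 55 counts over the 6 libraries together. The test, edgeR's quasi-likelihood test over all 18486 genes kept, called a gene at an adjusted p of at most 0.05. H2AC6 alone rose, by 0.41 ± 0.11 on the log2 scale (± SE), and 5 fell: H2BC14 (-0.89), H3C7 (-0.72), H2AC12 (-0.65), H2BC6 (-0.58) and H2BC12 (-0.37). These 6 are 11.5% of the tested members, against 32.6% of all genes tested (15.7% higher and 16.9% lower) and 24.2% of the 10012 genes in the members' own range of 0.110 to 7.08 CPM. With upper-quartile scaling the calls over all genes went from 2898 higher and 3128 lower to 3572 and 2524, and H2AC6 and H2BC14 were the members called. Without adjustment, 1 member was higher and 9 lower at p under 0.05. The fitted difference was below 0 for 37 members and above it for 15, with a median of -0.17. Over all genes tested the median was -0.01, and over genes of the same CPM range it was 0.05. The median SE of the members, 0.20, was close to the 0.19 of genes in that range. In bulk RNA, fewer cells in S phase and less histone RNA per S-phase cell cannot be told apart.

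**Figure D1:**
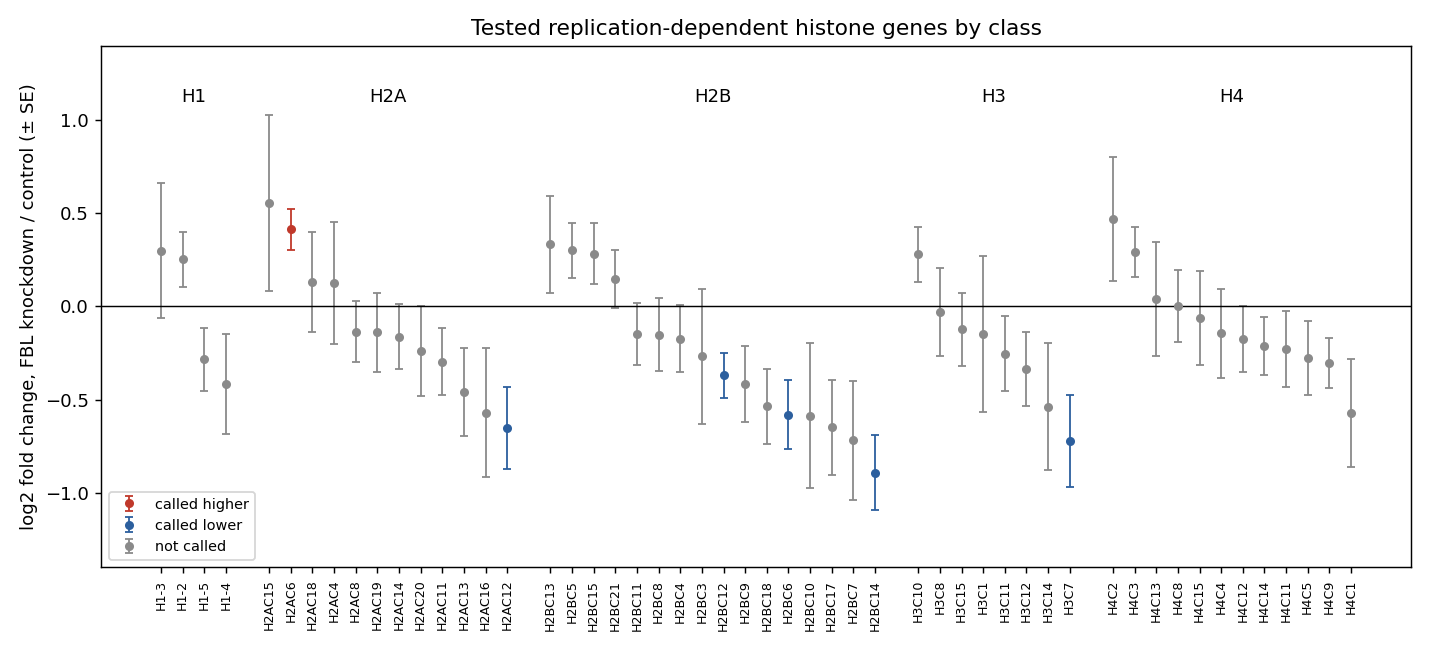
Log2 fold change of FBL knockdown against control (vertical axis, with bars of ± 1 SE) for the 52 tested histone genes, grouped by class and ordered by value. H2AC6 (red) is the member called higher, at 0.41, and the 5 called lower (blue) reach -0.89 at H2BC14, while the grey points on both sides of 0 did not pass the test.

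Groups that did not overlap were counted as a second description that does not depend on the test. All 3 knockdown values lay above all 3 control values in 5 of the 52 tested members and below them in 12. Over all genes tested, 45.2% had groups that did not overlap, in either direction. Leaving out mitochondrial transcripts, whose share was higher on average in knockdown libraries, and the 20 genes of highest count gave the same 1 member higher and the same 5 lower.

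Among the core histones, the H2A genes went in both directions. H2AC6 (ENSG00000180573, chromosome 6, 26124145 to 26139116, + strand) stood at 3.41, 3.66 and 3.15 CPM in control replicates 1 to 3 and at 4.45, 4.47 and 4.70 CPM in knockdown replicates 1 to 3. Every knockdown library was above every control library. The change was 1.33-fold (edgeR adjusted p = 0.0167). It missed the threshold without control replicate 3 (0.36, adjusted p = 0.0852), knockdown replicate 2 (0.43, adjusted p = 0.0515) or knockdown replicate 3 (0.42, adjusted p = 0.0533).

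H2AC12 (chromosome 6, 27147129 to 27147515, + strand), whose annotation is the coding sequence alone, stood at 0.761, 0.972 and 0.603 CPM in controls and at 0.553, 0.466 and 0.462 CPM in knockdown libraries. The groups did not overlap, although control replicate 3 lay close to knockdown replicate 1. Its difference was -0.65 ± 0.22 (edgeR adjusted p = 0.0420). With any of control replicates 1 and 2 or the 3 knockdown replicates left out it was -0.75 to -0.46, with adjusted p of 0.0530 to 0.143.

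H2AC19 and H2AC11 are the other H2A genes of high count. H2AC19 ranged from 1.5 CPM in control replicate 1 to 2.90 CPM in control replicate 2, and its knockdown values of 2.24, 1.76 and 2.02 CPM lay between them. Control values of H2AC11 were 1.44, 1.33 and 1.02 CPM, and its knockdown values were 1.07, 0.878 and 1.13 CPM. Neither passed the test (-0.14 ± 0.21 and -0.30 ± 0.18). H2AC18 and H2AC19 have the same coding sequence, so their reads may be split between them. Over the 12 tested H2A genes the median difference was -0.15, with 8 below 0, and the other tested members spanned -0.57 at H2AC16 to 0.56 at H2AC15.

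H2B held 3 of the 5 genes that fell and had the lowest class median, -0.32. H2BC14 (chromosome 6, 27815044 to 27815424, + strand) had the smallest p of the members. It stood at 0.579, 0.645 and 0.633 CPM in controls and at 0.347, 0.358 and 0.293 CPM in knockdown libraries, or 54, 63 and 64 counts against 32, 33 and 26. The groups lay well apart, with a fall of 1.86-fold (-0.89 ± 0.20, edgeR adjusted p = 0.00655). It was called in each of the 17 alternative settings that tested it, with adjusted p of 0.00187 to 0.0376. A stricter filter, at least 1 CPM in 3 libraries, left it out.

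H2BC6 (chromosome 6, 26172059 to 26184655, + strand) stood at 0.815, 0.880 and 0.771 CPM in controls and at 0.640, 0.477 and 0.530 CPM in knockdown libraries. The groups did not overlap, and the difference was -0.58 ± 0.19 (edgeR adjusted p = 0.0341). An exon of AL353759.1, on the opposite strand, overlaps its exons, and since the strand setting of the counting is not given here, reads of both cannot be told apart. Leaving out any control replicate, or knockdown replicate 2 or 3, gave -0.63 to -0.49 with adjusted p of 0.0583 to 0.132.

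H2BC12 (chromosome 6, 27146418 to 27146798, - strand) had the highest counts of all members. Its controls stood at 6.95, 8.97 and 8.03 CPM and its knockdown libraries at 6.52, 5.56 and 6.45 CPM. The gap between control replicate 1 and knockdown replicate 1 was small, and the groups did not overlap (-0.37 ± 0.12, edgeR adjusted p = 0.0391). With control replicate 2 or 3 or any knockdown replicate left out it was -0.41 to -0.28, with adjusted p of 0.0523 to 0.159.

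**Figure D2:**
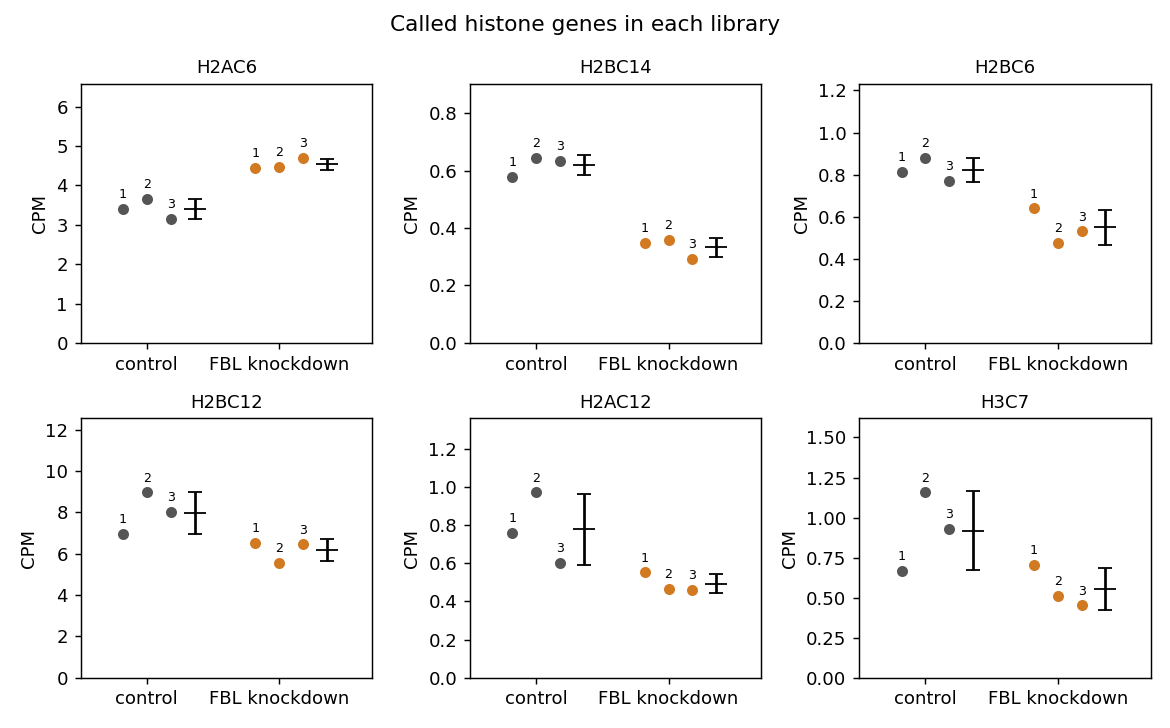
CPM of the 6 called histone genes in each library (points numbered by replicate, control in grey and FBL knockdown in orange), with the mean and SD of each group of 3 as a black bar and axes from 0. Knockdown points lie above the control points for H2AC6 and below them for the other genes, except H3C7, where control replicate 1 (0.665) lies under knockdown replicate 1 (0.705).

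The other H2B genes of high count or known for polyadenylated messages did not pass the test. H2BC9 stood at 1.28, 1.93 and 1.99 CPM in controls and at 1.58, 1.15 and 1.16 CPM in knockdown libraries (-0.42 ± 0.20), and without control replicate 1 it was called lower (-0.60, edgeR adjusted p = 0.0258). H2BC5 had 1.20, 1.27 and 1.17 CPM against 1.60, 1.33 and 1.55 CPM. Its groups did not overlap, and the difference of 0.30 ± 0.15 missed the threshold (edgeR adjusted p = 0.139). H2BC21 went from 1.13, 1.25 and 1.19 CPM to 1.18, 1.51 and 1.25 CPM. H2BC4 went from 0.879, 0.931 and 0.840 CPM to 0.911, 0.639 and 0.801 CPM, and the groups of both overlapped. Among the rest, H2BC17 (-0.65 ± 0.25), H2BC18 (-0.54 ± 0.20) and H2BC7 (-0.72 ± 0.32) had knockdown values below all controls and edgeR adjusted p of 0.0735, 0.0645 and 0.110. H2BC15 had knockdown values above all controls (0.28 ± 0.16, edgeR adjusted p = 0.216), and its exons overlap those of H2AC15 and H2AC16. H2BC18 shares exonic sequence with FCGR1A on the opposite strand.

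The H3 genes held 1 call. H3C7 (chromosome 6, 26250195 to 26250605, - strand) stood at 0.665, 1.16 and 0.929 CPM in controls and at 0.705, 0.509 and 0.451 CPM in knockdown libraries. It is the 1 called gene whose groups overlapped (-0.72 ± 0.25, edgeR adjusted p = 0.0443). Without control replicate 2 or 3 or knockdown replicate 2 or 3 the difference was -0.72 to -0.52, with adjusted p of 0.0970 to 0.185. H3C10, the H3 gene of highest CPM, had 1.73, 2.23 and 1.90 CPM in controls and 2.46, 2.09 and 2.56 CPM in knockdown libraries. It was the 1 tested H3 gene with a difference above 0 (0.28 ± 0.15, edgeR adjusted p = 0.172). H3C12 went from 0.622, 0.860 and 0.781 CPM to 0.553, 0.553 and 0.688 CPM (-0.34 ± 0.20), with overlapping groups.

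No H4 gene passed the test, and 1 of 12 had an unadjusted p under 0.05. That was H4C9, with 3.64, 4.28 and 3.84 CPM in controls and 2.70, 3.33 and 3.51 CPM in knockdown libraries. Its groups did not overlap (-0.30 ± 0.13, edgeR adjusted p = 0.108). H4C3 went the other way without overlap, from 1.49, 1.58 and 1.69 CPM to 1.79, 2.03 and 2.02 CPM (0.29 ± 0.14, edgeR adjusted p = 0.121). H4C11 ranged from 1.81 to 3.28 CPM in controls, which spanned its knockdown values of 2.42, 1.82 and 2.19 CPM. H4C14 had 1.82, 2.32 and 2.11 CPM against 2.05, 1.79 and 1.56 CPM. The coding sequences of H4C11 and H4C12 are the same, as are those of H4C14 and H4C15 and of H3C14 and H3C15. Adding up each such pair, with H2AC18 and H2AC19, before the fit left the same 1 gene higher and the same 5 lower.

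The linker histone genes held no call, and 0 of the 4 tested had an unadjusted p under 0.05. H1-2, the H1 gene of highest CPM, stood at 2.74, 2.41 and 2.21 CPM in controls and at 2.67, 2.68 and 3.44 CPM in knockdown libraries. H1-5 had 1.01, 1.19 and 0.919 CPM against 0.867, 0.910 and 0.778 CPM, and H1-4 had 0.343, 0.430 and 0.484 CPM against 0.423, 0.238 and 0.282 CPM. H1-5 was lower in every knockdown library than in any control, and for H1-2 the highest value was in knockdown replicate 3 (-0.28 ± 0.17 and 0.25 ± 0.15, edgeR adjusted p = 0.230 and 0.214). H1-6, the testis-specific H1, had 0 counts in controls and 2 counts in 1 knockdown library, and H1-1 had 1 count in all.

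Added up by class, H1 members gave 4.05 ± 0.248 CPM with shLUC and 4.27 ± 0.422 CPM with shFBL (mean ± SD, n = 3 each). H2A summed to 12.3 ± 1.77 and 12.2 ± 0.683 CPM, H3 to 5.54 ± 0.621 and 5.22 ± 0.250 CPM, and H4 to 14.9 ± 1.68 and 13.5 ± 0.446 CPM. The groups overlapped in these 4 classes. H2B summed to 17.8, 21.1 and 19.5 CPM in controls and to 17.7, 15.2 and 16.4 CPM in knockdown libraries, and it is the 1 class whose groups did not overlap, by a margin of control replicate 1 over knockdown replicate 1 that was small beside the SDs of 1.62 and 1.22 CPM. Its mean fell by 15.6%. Control replicate 2 had the highest sum of all libraries for H2A, H2B, H3 and H4.

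In H1, H2A and H3 the gene of highest CPM had a difference above 0 while the rest of the class summed lower, and in H2B and H4 it was below 0 like the rest. H1-2 held 64.7% of the H1 sum, H3C10 40.2% of H3, H2BC12 39.4% of H2B, H2AC6 32.5% of H2A and H4C9 25.0% of H4. With H1-2 left out, H1 went from 1.59 ± 0.130 to 1.35 ± 0.103 CPM, a fall of 15.5% with no overlap. With H3C10 left out, H3 went from 3.59 ± 0.371 to 2.85 ± 0.0546 CPM, a fall of 20.7% with no overlap. H2A without H2AC6 changed by -14.4% and H4 without H4C9 by -5.43%, and in both the groups overlapped. H2B without H2BC12 changed by -10.7%, and its groups then overlapped too.

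**Figure D3:**
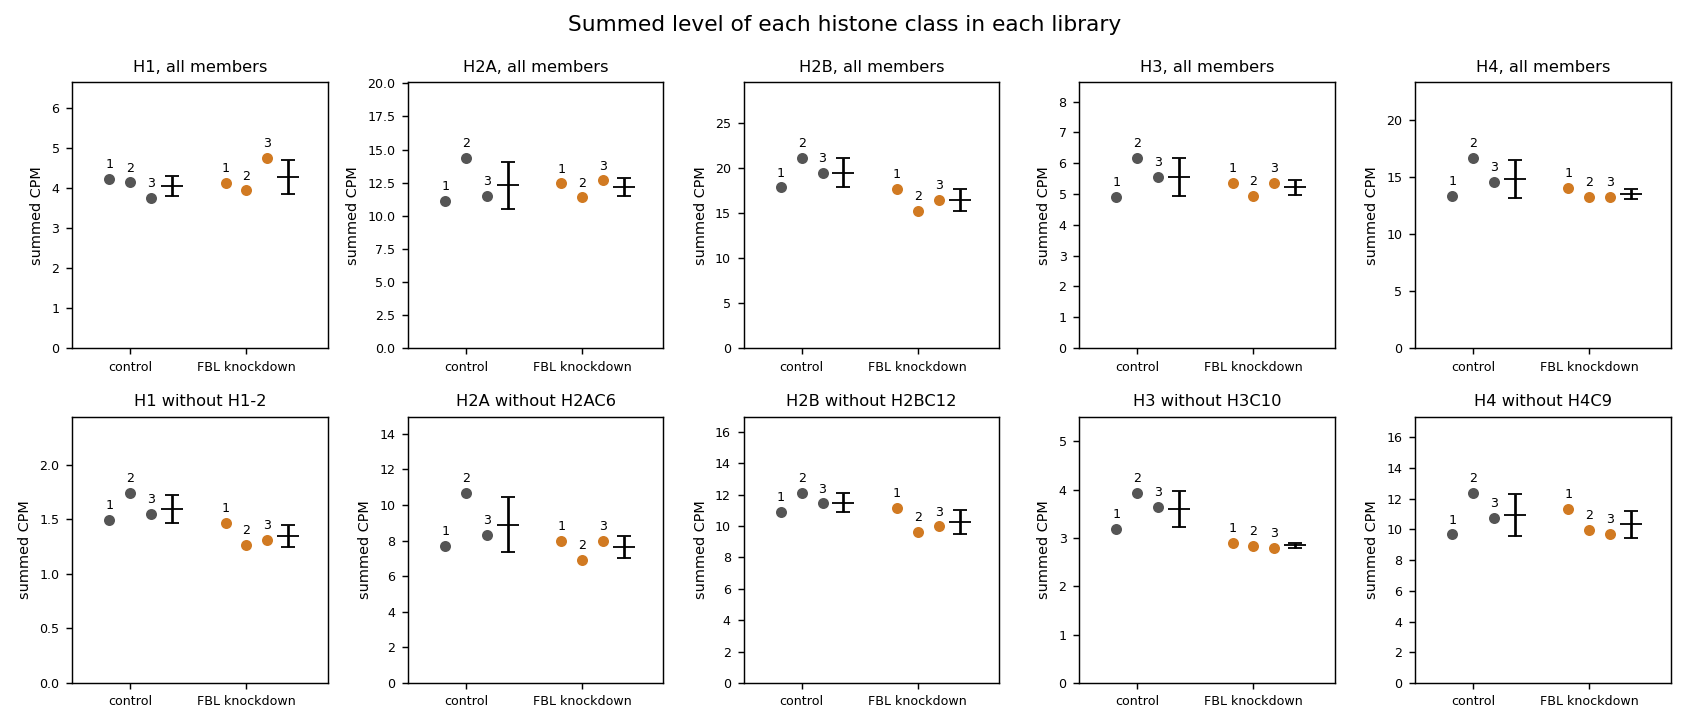
Summed CPM of each histone class in each library (points numbered by replicate, control in grey and FBL knockdown in orange, black bars for mean and SD, axes from 0), for all members (top) and without the member of highest CPM (bottom). Among the top panels the groups separate only for H2B, and among the bottom panels only for H1 without H1-2 and H3 without H3C10.

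Levels of different genes are compared per length, as the deposited RPKM (reads scaled to gene length and library total). H2BC12 stood highest in controls, at 21 ± 2.74 RPKM, followed by H4C11 at 6.74 ± 2.00, H2AC19 at 3.93 ± 1.26, H4C12 at 3.92 ± 0.722 and H1-2 at 3.83 ± 0.409 RPKM. H2BC12 was above the rest by more than the SDs, while H2AC19, H4C12 and H1-2 lay within theirs of each other. In knockdown libraries H2BC12 was at 16.2 ± 1.55, H4C11 at 5.74 ± 0.878 and H1-2 at 4.55 ± 0.662 RPKM. The median member was at 0.757 RPKM in controls and 0.700 RPKM in knockdown libraries. The length used by the authors decides this scale: it was 381 bases for H2BC12, the coding sequence alone, and 1668 bases for H2AC6, which includes the region after the stem-loop.

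**Figure D4:**
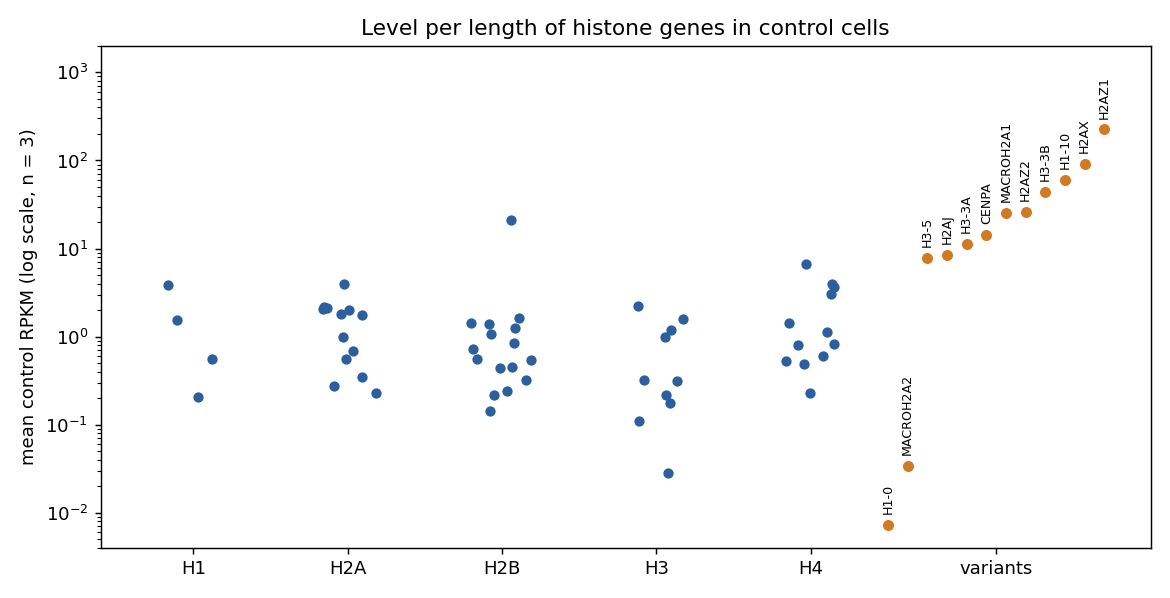
Mean control RPKM (log scale, n = 3) of the histone members by class (blue, 1 point a gene, spread sideways for display) and of the histone variants (orange, named). H1-1, H1-6 and H2AC17, at 0 in all controls, are not drawn. H2BC12, at 21, is the highest blue point, and 10 of the 12 variants lie above 7 RPKM.

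Known polyadenylated messages were looked at as a list of 6 members (H1-2, H2AC6, H2BC4, H2BC5, H2BC12 and H2BC21), written from general knowledge. These 6 held 31.9% of the members' CPM. Of them 1 rose (H2AC6), 1 fell (H2BC12), and the median was 0.20. The 46 tested members off the list had 0 higher and 4 lower, with 35 of 46 below 0 and a median of -0.22. The difference between the 2 sets was not tested.

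Gene models that reach past the stem-loop were also set apart. Models of 19 members run at least 100 bases beyond it, and of these 1 rose (H2AC6) and 1 fell (H2BC6), with a median of -0.17. In 8 members the transcript that holds the stem-loop ends nearer to it, with 0 calls and a median of 0.00. One of these, H2BC5 (0.30), has a gene span of 26158146 to 26171349 and a counted length of 871 bases. Its counted model thus reaches further than that transcript. The 26 members whose coding transcripts hold the coding sequence alone, 22 of them tested, held the other 4 lower genes and had a median of -0.26. One of them, H3C12, has a counted length of 775 bases, so its counted model is longer. The remaining 5 members, 3 of them tested, had 0 calls and a median of -0.15. The annotation release used for the counting is not given in the sources used here, so this grouping, from GENCODE v29, may not match it gene by gene.

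Many H2A and H2B genes stand head to head, with both transcript starts in 1 short gap, and 1 such pair shared its call. Among the members were 9 pairs with divergent starts, taken as the 5′ ends of the gene models, 219 to 357 bases apart in GENCODE v29. Of these, 8 had both genes tested and 5 of those had the same sign. H2AC15 and H2BC15, whose RefSeq windows overlap on opposite strands, are not among them, since the gene model of H2BC15 overlaps H2AC15. They were at 0.56 and 0.28, and neither passed the test. H2BC12 and H2AC12 both fell (-0.37 and -0.65). H2BC14 fell, while its partner H2AC14 was at -0.16 ± 0.18 without passing the test. H2AC6 rose beside H2BC4, at -0.17 ± 0.18. The single pair of other classes was H3C12 with H2BC17, at -0.34 and -0.65. It is among the 5 of the same sign and has the largest gap, 357 bases. The gene model of H3C12 overlaps H2AC17 on the same strand. H2AC17, which was not tested, lies 314 bases from H2BC17 and is counted as its partner too. The H3C12 pair may thus reflect the extent of the model and no shared promoter.

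H2B genes whose promoter window held the octamer had a median of -0.42 over 13 genes, 3 of them lower, and the 3 without it had a median of 0.30 with 0 calls. For H2A the medians were -0.16 over 7 tested genes with the octamer, 1 of them higher, and 0.00 over 4 without it. Some of these octamers lie in the windows of an H2A and an H2B gene at once, so the H2A and H2B splits are not independent. These splits are descriptions with no test, and 3 genes are few. By position, the chromosome 6 cluster (26017085 to 27893843) held 47 members and all 6 calls, with a median of -0.17 over 43 tested. The chromosome 1 cluster (149782689 to 149887916) held 11 members, of which 9 were tested, with 0 calls and a median of -0.14.

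Near-identical copies limit what a count of 1 gene means here. In the H2A, H2B, H3 and H4 classes the closest other member shares a median of 87.7% to 93.0% of coding bases, by class, and 8 genes form 4 identical pairs. How reads with several matches were counted is not given in the sources used here. Exons of 12 members overlap those of another annotated gene, in 9 cases on the opposite strand. Of the called genes this holds for H2BC6.

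Beyond the members, genes that act on them were read from lists written from general knowledge. Each count is to be read against the shares over all genes tested, 16.9% lower and 15.7% higher. These shares are not matched to level. Of genes at 0.110 to 7.08 CPM, 24.2% were called in either direction, and many list genes lie above that range. A share for genes of the lists' own levels was not computed. The 9 regulators of histone transcription had 0 higher, 2 lower and a median of 0.01, beside 32.6% of all genes called in either direction. With 9 genes this does not set the list apart. NPAT, the activator of the histone locus bodies, stood at 1.91, 1.17 and 1.47 CPM in controls and at 1.41, 1.61 and 1.95 CPM in knockdown libraries, with no call (0.13 ± 0.20). The lower ones were CCNE1 (-0.35 ± 0.08, edgeR adjusted p = 0.00641) and CDK2 (-0.34 ± 0.09, edgeR adjusted p = 0.0114), the cyclin and kinase that phosphorylate NPAT. Both calls were lost without knockdown replicate 3, at -0.29 each (adjusted p = 0.0675 and 0.0787).

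The 3′ end processing list showed 6 of 11 tested members lower, against 16.9% of all genes, with 1 higher and a median of -0.36. SLBP, which binds the stem-loop, stood at 77.3, 65.5 and 68.9 CPM in controls and at 60.0, 69.6 and 66.5 CPM in knockdown libraries. Its groups overlapped, and it was not called (-0.11 ± 0.09, edgeR adjusted p = 0.397). SRRT, a cap-associated factor, fell from 143 ± 14 to 69.8 ± 7.81 CPM (-1.03 ± 0.11, edgeR adjusted p = 8.13e-05). Other members that fell were CSTF2 (-0.90) and CPSF3 (-0.81), of the cleavage machinery shared with polyadenylation, CPSF2 (-0.48), and the cap-binding subunits NCBP1 (-0.46) and NCBP2 (-0.36). LSM10, a U7-specific ring protein, rose by 0.36 ± 0.08 (edgeR adjusted p = 0.00828). CPSF2 lost its call without control replicate 3 or knockdown replicate 2 or 3 (-0.48 to -0.42, adjusted p of 0.0601 to 0.0697). NCBP1 lost it without any library but control replicate 2 (-0.47 to -0.33, adjusted p of 0.0809 to 0.116).

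In the list drawn up for histone mRNA decay, 1 member of 8 was higher and 1 lower, beside 32.6% called over all genes. With 8 genes this does not set the list apart. The median was 0.00. UPF1, a helicase used in histone mRNA decay and in nonsense-mediated decay, stood at 73.9, 69.5 and 66.8 CPM in controls and at 45.3, 39.8 and 43.8 CPM in knockdown libraries (-0.70 ± 0.09, edgeR adjusted p = 0.000197). MIF4GD, the higher one, is in the list as a partner of SLBP and need not act in decay. It stood at 77.4, 83.3 and 86.7 CPM in controls and at 124, 125 and 124 CPM in knockdown libraries (0.59 ± 0.08, edgeR adjusted p = 0.000341). The groups of both genes lay far apart.

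Of 25 histone chaperones and carriers, which escort histones to DNA, 12 were lower, against 16.9% of all genes, and 0 were higher, with a median of -0.30. NASP, which holds soluble H3 and H4, went from 55.4, 40.6 and 45.4 CPM to 21.8, 21.2 and 22.1 CPM (-1.12 ± 0.11, edgeR adjusted p = 7.65e-05). SUPT16H, a subunit of FACT, was at -0.95 ± 0.14. CHAF1A and TONSL, which place or read new H3 and H4 behind the replication fork, were at -0.82 ± 0.10 and -0.71 ± 0.14. RBBP7 (-0.61 ± 0.08) and RBBP4 (-0.53 ± 0.12), which bind H4, also fell.

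Histone variants, measured at far higher levels per length, held 5 lower of 10 tested genes, against 16.9% of all genes, and 0 higher, with a median of -0.36. H2AZ1 stood at 551, 497 and 508 CPM in controls and at 353, 347 and 341 CPM in knockdown libraries (-0.58 ± 0.08, edgeR adjusted p = 0.000384). H2AX, which marks DNA breaks and has both polyadenylated and stem-loop messages, stood at 112, 179 and 146 CPM against 96.7, 81.6 and 94.2 CPM (-0.68 ± 0.15, edgeR adjusted p = 0.00546). Its control replicate 2 was highest, as in the H2A, H2B, H3 and H4 sums. MACROH2A1 (-0.67 ± 0.08) and H2AJ (-0.59 ± 0.15) fell too, and H2AJ lost its call without knockdown replicate 2 or 3 (-0.50 and -0.54, adjusted p = 0.0731 and 0.0725). H1-10 was called at -0.51 ± 0.18 (edgeR adjusted p = 0.0485) although its groups overlapped. It lost that call in 12 of 18 alternative settings, and without control replicate 2 it was at -0.27 (adjusted p = 0.0833). The replacement H3 genes H3-3A (0.05 ± 0.09) and H3-3B (-0.22 ± 0.09) did not pass (edgeR adjusted p = 0.706 and 0.0931), and H3-3B passed without control replicate 1 (-0.29, adjusted p = 0.0403).

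The DNA synthesis list showed 20 of 28 lower, against 16.9% of all genes, with 0 higher and a median of -0.64. It covers DNA synthesis, whose activity histone supply follows, and other S-phase genes such as E2F1, CCNA2, UHRF1 and SLBP. MCM7, a subunit of the replicative helicase, stood at 816, 670 and 734 CPM in controls and at 271, 205 and 243 CPM in knockdown libraries (-1.63 ± 0.12, edgeR adjusted p = 1.79e-05). UHRF1 (-1.30), RRM1 (-1.15), FEN1 (-1.09), MCM2 (-1.05) and MCM5 (-1.05) followed. SLBP is in this list as well as in the processing list, and it was among the 8 that did not pass. Both sets were read from the same libraries, and the part of these genes in the histone values was not tested. In control replicate 2, where the H2A, H2B, H3 and H4 sums were highest, genes of this list went both ways. MCM7 was lowest there among controls. TK1 (388, 511 and 451 CPM in control replicates 1 to 3) and CDT1 (173, 267 and 219 CPM) were highest there.

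**Figure D5:**
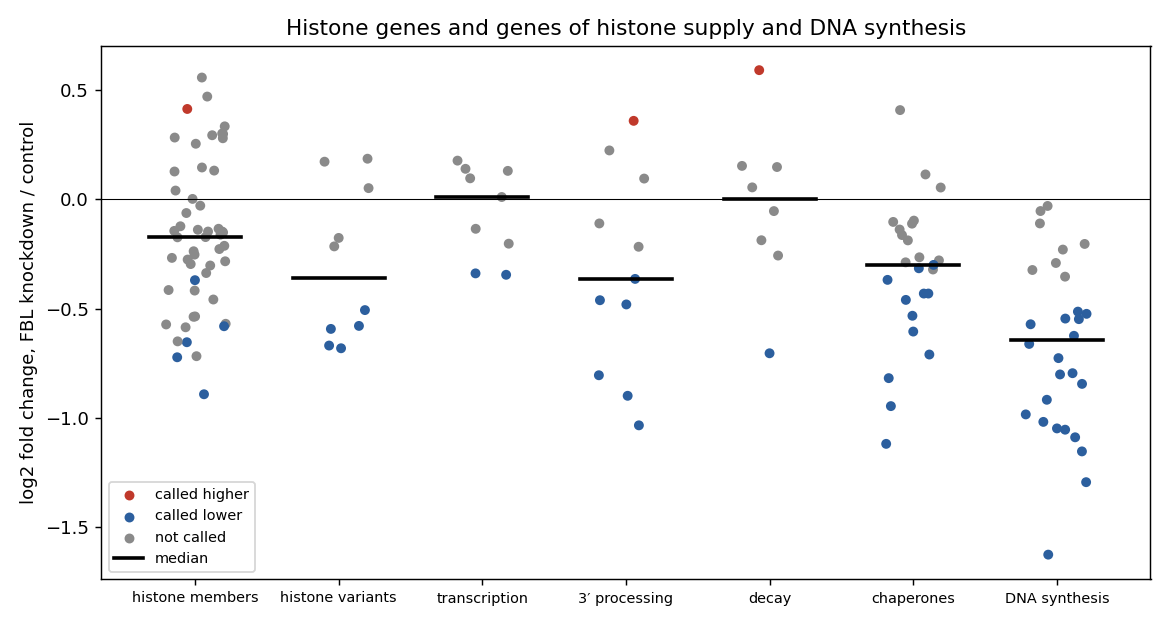
Log2 fold change of FBL knockdown against control for each tested gene of the histone members and of 6 lists, with the median of each as a black line and calls in red (higher) and blue (lower). The medians run from -0.64 for DNA synthesis through -0.36 for variants and 3′ processing and -0.30 for chaperones to -0.17 for the histone members and about 0 for transcription and decay.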

How the data were processed

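The authors deposited whole-number counts per Ensembl gene for 31966 genes and 6 libraries, with gene lengths, and a table of RPKM values. Per the submitters' processing notes, the tools included HISAT2, featureCounts, cutadapt 1.18 and edgeR, on GRCh38. The sources used here give no annotation release, strand setting or treatment of multiply matching reads. Recomputed RPKM matched 191796 of 191796 deposited values within a relative tolerance of 1e-06. There were 0 unused sample columns.

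Analyses ran in R 4.3.3 (DESeq2 1.42.0, limma 3.58.1, edgeR 4.0.16). Counts were filtered with filterByExpr (minimum count 10, minimum total 15) and scaled with TMM factors of edgeR. CPM is relative to the scaled library total. FBL knockdown was set against control in edgeR's quasi-likelihood test on group alone, with Benjamini-Hochberg adjustment over all 18486 genes tested, and SEs were derived from its F statistic. Tests were tried on simulated data first. Positions and gene models came from GENCODE v29 and promoters from RefSeq GRCh38.p14.

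The members, the lists and the rule for named genes were chosen with earlier results of these data known. Named members are those called, the 3 of highest mean CPM in each class and the list of polyadenylated messages. Those at a mean of at least 1 CPM whose groups did not overlap are named too. H2BC15, H2BC17, H2BC18, H2BC7, H1-1, H1-6, H2AC15, H2AC16 and the partners in pairs were added after their values were seen. From each other list came the called genes, or the 6 with the largest change where more passed, with SLBP, NPAT, H2AX, H2AZ1, H3-3A and H3-3B. LSM10, the 1 processing gene called higher, was added likewise, as were TK1 and CDT1. Alternatives were other scalings, filters, tools, a replicate block and the omission of each library. Summing each pair of identical coding sequences was added after the data were seen.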

Additional observations from a re-analysis of the deposited data

How the results depend on the processing

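The calls of histone genes were few and near the threshold. Against 5 lower members in the chosen fit, edgeR gave 3 with RLE scaling and 1 with upper-quartile scaling, DESeq2 and limma voom gave 3 each, and a filter of at least 1 CPM in 3 libraries, which tested 17 members, gave 0. On log2(RPKM + 1), limma called 6 lower, adding H2BC17 and H2BC18 and losing H3C7. On log2(RPKM + 0.1) it called 5 lower, with H2BC17 in place of H3C7, and 2 members higher in place of 1, adding H4C3. H2AC6 lost its call in 4 of 18 settings, H2BC6 in 8 of 17, H2AC12 in 9 of 17, H2BC12 in 9 of 18 and H3C7 in 10 of 17.

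With 1 library left out, members called lower ranged from 1 to 5 and members called higher from 0 to 1. Of the lower calls 1 was left without control replicate 2 or knockdown replicate 2 or 3, and 2 without control replicate 3. The higher call was lost without control replicate 3 or knockdown replicate 2 or 3. Over the transcription, processing, decay, chaperone and variant lists, without the DNA synthesis list, genes called lower, 26 in the chosen fit, ranged from 16 to 30, with 16 without knockdown replicate 3, and those called higher ranged from 2 to 3. Over these 5 lists, genes called higher went from 2 to 6 with upper-quartile scaling and to 5 with the 1 CPM filter. Without control replicate 2 the sign reversed for H2AC19 (0.10, lowest -0.35 without another library), H4C11 (0.0092, lowest -0.42) and NPAT (-0.028, highest 0.32), and without knockdown replicate 2 for H3-3A (-0.036, highest 0.11). None of these 4 was called in the chosen fit. The cause of these changes was not tested, beyond the fewer libraries or genes in the fit.

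The log2 ratio of the summed CPM moved from 0.08 to -0.24 for H1 and from -0.02 to -0.22 for H2A without the polyadenylation list, and by the same amount without the highest member, which is the same gene. For H3 it moved from -0.09 to -0.33 without the highest member. Adding up several rows of 1 symbol was not run, since each symbol had 1.

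The labels give both groups replicate numbers 1 to 3. Deviations of same-numbered libraries correlated at -0.51, -0.43 and 0.16, so the numbers were not taken to pair the samples. With the number as a replicate block, 0 members were called higher and 1 lower (H2BC14). Depth limits the members: the median tested one had 372.5 counts over 6 libraries, and a log2 difference of 0.72 (H2BC7) could miss the threshold.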
